A study of Mus musculus with 20 samples.

Results

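The genes described here are 10 members of the Bcl2 family, the proteins that control the mitochondrial step of apoptosis: Bcl2, Bcl2l1, Bcl2l10, Mcl1, Bax, Bak1, Bid, Bcl2l11, Bok and Bad. They were chosen by symbol, and all probe sets annotated to them were taken. The array held 24 such probe sets for 9 of the 10 genes, out of 12393 genes with a probe set of their own. Bax had no probe set under its symbol in the array annotation used here and was skipped. None of the 24 probe sets was annotated to another gene as well.

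RNA from mouse oocytes and preimplantation embryos was measured on a short-oligonucleotide expression array at 5 stages: oocyte, 1-cell, 2-cell, 8-cell and blastocyst, with 4 arrays per stage and 20 in all. Every sample was total RNA that went through 2 rounds of amplification by in vitro transcription. The labels give no strain, treatment, time, number of pooled oocytes or embryos, or origin of the replicates, so the p-values below measure the spread between arrays, which may be technical.

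Bcl2 family proteins fall into 3 classes. Anti-apoptotic members (Bcl2, Bcl2l1 or Bcl-x, Bcl2l10 or Diva, and Mcl1) hold the effectors in check, effectors (Bax, Bak1 and Bok) permeabilize the outer mitochondrial membrane so that cytochrome c leaves, and BH3-only members (Bid, Bcl2l11 or Bim, and Bad) relay death signals by activating effectors or by occupying the anti-apoptotic members. In the preimplantation embryo the oocyte's stored transcripts are degraded while the embryonic genome becomes active, in the mouse mainly at the 2-cell stage. Loss of Mcl1 is known to be lethal to the mouse embryo around implantation.

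The promoters of 3 members whose signal rose at a stage after fertilization are shown because their time courses differed in the values as deposited. Bid, by 1 of its 2 probe sets, and Mcl1 rose at the 2-cell stage, after which Bid fell and Mcl1 rose further. Bok rose at the 8-cell stage. The further rise of Mcl1 was not called under another scaling, given below. Each is the 250 bases before the annotated start, 5′ to 3′ on the gene's strand, from RefSeq on GRCm38.p6; capitals mark the GC box.
Bid, chr6:120916825-120917074, minus strand: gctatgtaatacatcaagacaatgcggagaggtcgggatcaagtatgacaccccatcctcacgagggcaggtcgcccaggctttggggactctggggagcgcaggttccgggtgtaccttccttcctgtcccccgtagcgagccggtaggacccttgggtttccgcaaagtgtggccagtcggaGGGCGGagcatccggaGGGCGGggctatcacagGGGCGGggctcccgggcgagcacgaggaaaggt
Mcl1, chr3:95658471-95658720, plus strand: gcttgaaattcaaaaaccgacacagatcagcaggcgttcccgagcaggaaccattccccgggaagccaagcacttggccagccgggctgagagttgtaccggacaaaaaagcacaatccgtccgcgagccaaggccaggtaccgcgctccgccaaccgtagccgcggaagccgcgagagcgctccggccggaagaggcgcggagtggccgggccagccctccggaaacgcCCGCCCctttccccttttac
Bok, chr1:93685325-93685574, plus strand: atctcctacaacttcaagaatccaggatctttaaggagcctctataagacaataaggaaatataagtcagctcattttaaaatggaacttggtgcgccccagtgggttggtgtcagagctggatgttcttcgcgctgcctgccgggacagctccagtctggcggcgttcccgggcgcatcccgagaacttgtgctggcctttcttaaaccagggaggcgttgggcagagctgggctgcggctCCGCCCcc
In these windows Bid had 3 GC boxes (GGGCGG on either strand), whose first bases lay 66, 50 and 33 bases before the start, Mcl1 had 1 at 20 bases and Bok had 1 at 8 bases. A GC box stood in 32.7% of the 32851 promoter windows of this length. The other motifs searched on both strands were the TATA box (TATAAA, in 12.4% of windows), the CCAAT box (CCAAT, 33.8%), the cAMP response element (TGACGTCA, 1.55%) and the E box (CACGTG, 6.02%). None of these 4 was found in the 3 windows, and no match of 1 motif overlapped a match of another. Over all members 9 of 10 had an entry, with 13 windows between them, and Bcl2l10 had none. Bad, which also rose at the 8-cell stage, is not shown. Its window from 6941611 had 3 GC boxes, and that from 6942312 had none but 1 CCAAT box. GC boxes also stood in the Bcl2 window (7), the Bax window (2) and the Bcl2l11 windows (3 and 2), and in none of Bcl2l1 or Bak1. The Bax window also had 1 E box, and the Bcl2l11 windows had 1 and 2 CCAAT boxes. A link between motifs and time courses was not tested.

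The deposited values are signal intensities on a linear scale, with the mean of each array set to a common value (the mean without the highest and lowest 2% was 150.05 to 150.08 on every array). A change is a difference of mean log2(intensity + 12.15), later stage minus earlier stage, given with its standard error. It was tested with limma's moderated test and called at a Benjamini-Hochberg adjusted p under 0.05 over the 17193 probe sets that exceeded an intensity of 33 on at least 4 arrays. The added constant shrinks changes of dim probe sets. Of the 24 probe sets of the family 19 passed that filter, covering 8 genes: Mcl1 with 6 of 6, Bcl2l11 with 5 of 5, Bad with 2 of 2, Bcl2l1 with 2 of 4, Bid with 1 of 2, and Bcl2, Bcl2l10 and Bok with 1 of 1. Both Bak1 probe sets stayed below it. Where a gene had several probe sets, the brightest over all arrays represents it. Consecutive comparisons share the arrays of the stage between them.

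Arrays of a stage resembled each other (Pearson r of 0.931 to 0.971 over tested probe sets) more than arrays of different stages (0.435 to 0.899), and no 2 arrays were identical. Of the 10 stage marker genes measured, some set the labelled stages apart. Zp3 averaged 5489 ± 401 (SD, n = 4) in oocytes and 32.5 ± 5.8 in blastocysts. Zfp352 reached 1994 ± 365 at the 2-cell stage and Krt8 4372 ± 290 in blastocysts. Nanog averaged 325 ± 74 at the 8-cell stage and 571.5 ± 230 in blastocysts. Gdf9 and H1f8 were higher at the 1-cell stage (9208 and 3638) than in oocytes (7590 and 2076). Both Eif1a probe sets averaged more at the 8-cell stage (1010 and 425) than at the 2-cell stage (266 and 91.1). Of other cells, the summed signal of 14 cumulus and granulosa probe sets ran from 259 to 684 over all arrays and that of 12 sperm probe sets from 84.2 to 263, with no more than 3 and 1 of them above 33 on all arrays of a stage; the sperm gene Tnp2 read at most 8.4. The 7 oviduct and blood probe sets summed to 199 to 398 in oocytes and 1-cell embryos, 502 to 1033 on 2-cell arrays, 301 to 3363 on 8-cell arrays and 217 to 290 on blastocyst arrays. The highest sum was that of 8-cell replicate 2, on which Ovgp1, an oviduct secretory protein, read 3105. Leaving that array out changed no call of a family probe set. Ovgp1 also averaged 495 ± 242 on the 2-cell arrays, against 58.5 ± 26.9 in oocytes and 74.2 ± 26.5 at the 1-cell stage. Leaving out an 8-cell array does not bear on the 2-cell stage. RNA measures also moved with stage: the 3′ to 5′ ratio of actin was 1.99 ± 0.33 in blastocysts against stage means of 3.67 to 4.74 elsewhere, that of Gapdh was 1.28 ± 0.47 at the 8-cell stage against 4.70 to 5.81, and the 18S ribosomal RNA probe set averaged 12665 ± 1877 at the 1-cell stage against 196 to 851. Their part in the results was not tested. Per-array scaling also leaves the RNA content of an oocyte or embryo out of the values, and fewer cells of a type cannot be told apart from less RNA per cell.

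The direction of several changes depended on the scaling. The bacterial control transcripts added at hybridization had a geometric mean that averaged 444 on oocyte, 915 on 1-cell, 790 on 2-cell, 1170 on 8-cell and 526 on blastocyst arrays. Scaling each array to them moved the median log2 change over all tested probe sets from 0.11 to −0.71 between oocyte and 1-cell, from −0.04 to 0.13 between 1-cell and 2-cell, from 0.06 to −0.41 between 2-cell and 8-cell, from −0.21 to 0.70 between 8-cell and blastocyst and from −0.12 to −0.34 between oocyte and blastocyst. With that scaling the share of higher calls among all calls was 0.662%, 66.3%, 20.3%, 96% and 39.3% in those 5 comparisons, against 51.1%, 51.9%, 48%, 43.4% and 48.1% with the deposited scaling. Centring on the array median moved it past 10 percentage points in 1 comparison, to 63% between 8-cell and blastocyst. Member calls that this control scaling turned or ended are given with each gene.

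**Figure D1:**
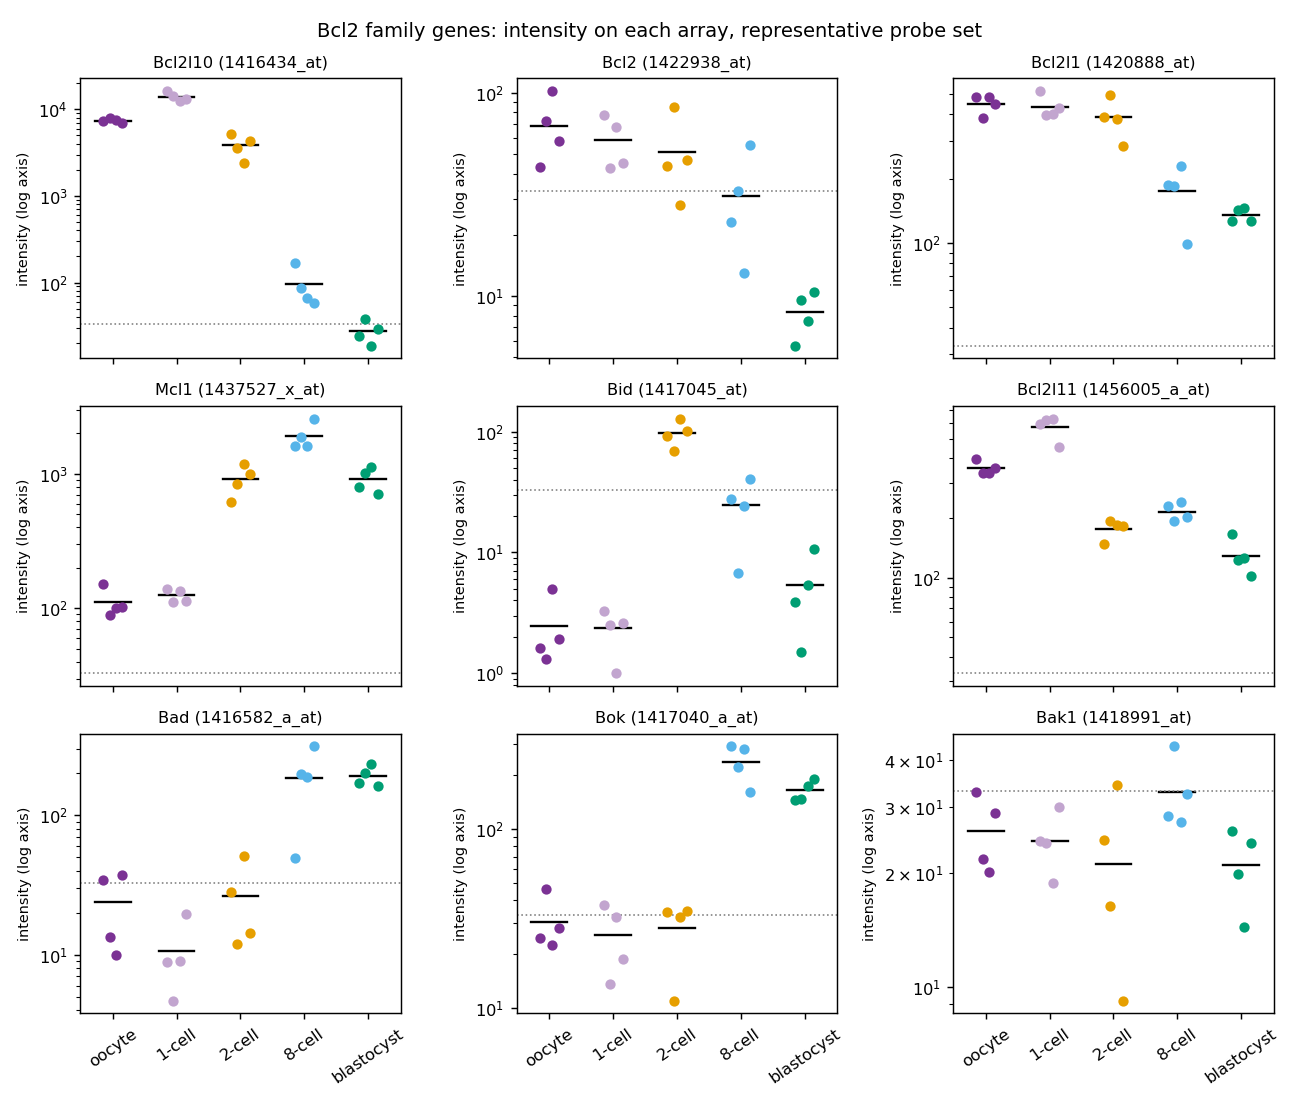
Signal intensity (log axis) of the representative probe set of each of the 9 measured Bcl2 family genes on each of the 20 arrays, by stage; points are arrays, bars are stage means and the dotted line marks the filter at 33. Bcl2l10 goes from 14068 on average at the 1-cell stage to 27.4 in blastocysts, Mcl1 rises at the 2-cell stage, Bid is above 33 on all 4 arrays at the 2-cell stage alone, and Bok and Bad are high from the 8-cell stage on.

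Bcl2l10, which is usually counted among the anti-apoptotic members, gave the steepest profile of the family. Its probe set read 7265, 7866, 7512 and 7037 on the oocyte arrays, 16227, 14328, 12425 and 13291 on 1-cell, 5179, 3625, 2403 and 4331 on 2-cell and 170, 85.5, 66.5 and 57.9 on 8-cell arrays, and 24.4, 37.4, 18.7 and 29.2 on blastocyst arrays. The 4 arrays of each stage lay apart from those of every other stage. The signal rose by 0.92 ± 0.23 from oocyte to 1-cell (adjusted p = 0.00314), fell by 1.90 ± 0.23 to the 2-cell stage (adjusted p = 1.02e-07), by 5.24 ± 0.23 to the 8-cell stage (adjusted p = 2.54e-16) and by 1.35 ± 0.23 to the blastocyst (adjusted p = 3.57e-05). From oocyte to blastocyst the change was −7.57 ± 0.23 (adjusted p = 3.10e-20), with 3 of the 4 blastocyst arrays below 33, so that its size depends on the added constant. Ordered from low to high, the stages ran blastocyst, 8-cell, 2-cell, oocyte and 1-cell, and every neighbouring pair passed the test. The rise at the 1-cell stage did not hold under other scalings: it was 0.27 (adjusted p = 0.474) after quantile normalization and −0.11 (adjusted p = 0.782) on the hybridization controls. The last step was lost on those controls as well (−0.43, adjusted p = 0.267).

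Mcl1, a short-lived anti-apoptotic protein, rose at the 2-cell and 8-cell stages, where Bcl2l10 fell. The brightest of its 6 probe sets, 1437527_x_at, read 151, 89.9, 101 and 103 on the oocyte arrays, 140, 111, 135 and 114 on 1-cell, 622, 844, 1191 and 1006 on 2-cell and 1612, 1877, 1608 and 2574 on 8-cell arrays, and 805, 1016, 1118 and 706 on blastocyst arrays. Oocyte and 1-cell arrays overlapped, all later arrays lay above them, and the 8-cell arrays lay above all others. The change was 0.17 ± 0.20 from oocyte to 1-cell (adjusted p = 0.583), 2.73 ± 0.20 from 1-cell to 2-cell (adjusted p = 8.09e-12), 1.07 ± 0.20 from 2-cell to 8-cell (adjusted p = 7.14e-05) and −1.06 ± 0.20 from 8-cell to blastocyst (adjusted p = 0.000132). Blastocysts remained 2.91 ± 0.20 above oocytes (adjusted p = 1.06e-12). The 2-cell and blastocyst stages lay 0.01 ± 0.20 apart (adjusted p = 0.973, 95% interval of the change −0.41 to 0.43).

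The other 5 Mcl1 probe sets were also called higher at the 2-cell and 8-cell stages and lower in blastocysts than at the 8-cell stage, with different sizes. The rise from 1-cell to 2-cell was called for all 6 and ran from 1.93 ± 0.18 for 1416880_at to 4.27 ± 0.21 for 1448503_at, whose intensities went from 63.8, 63.2, 49.2 and 63.4 to 1171, 1256, 1679 and 1425. From 2-cell to 8-cell all 6 rose, by 0.78 to 1.18, and from 8-cell to blastocyst all 6 fell, with changes of −0.87 to −1.63. Neither of these later steps held on the hybridization controls: there the 6 changes from 2-cell to 8-cell were 0.19 to 0.59 with none called, and those from 8-cell to blastocyst were −0.50 to 0.24 with none called. From oocyte to 1-cell only 1456381_x_at was called (0.65 ± 0.21, adjusted p = 0.0172). That call was lost without oocyte replicate 4 (0.56, adjusted p = 0.0617), and on the hybridization controls the change was −0.17. On those controls 2 others were called lower instead, 1437527_x_at at −0.77 and 1456243_x_at at −0.82. The suffix _x_at marks probe sets in which some probes also match other transcripts, which applies to 3 of the 6; the 3 without it moved the same way at the 2-cell stage.

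**Figure D2:**
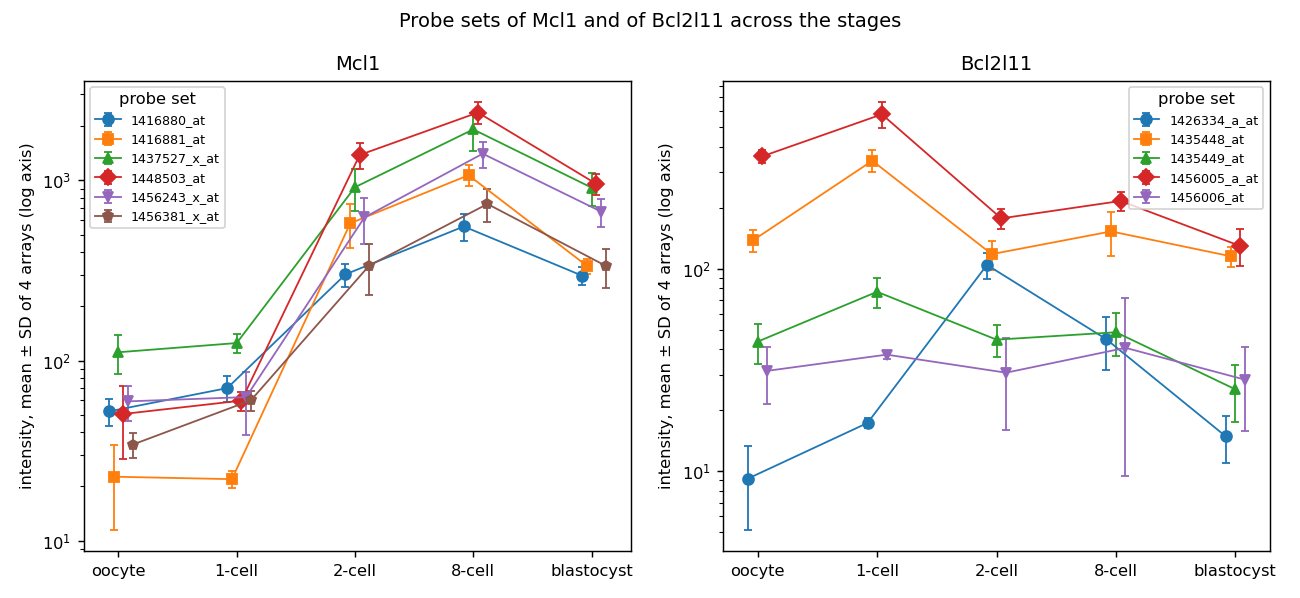
Mean ± SD of the intensity (log axis) over 4 arrays per stage for the 6 probe sets of Mcl1 and the 5 of Bcl2l11, slightly offset sideways. All 6 Mcl1 probe sets step up at the 2-cell stage, while at that stage 1 Bcl2l11 probe set, 1426334_a_at, goes up and 1456005_a_at, 1435448_at and 1435449_at go down.

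Bcl2l1, which encodes the anti-apoptotic Bcl-x, was measured mainly by 1420888_at, which read 481, 384, 483 and 445 on the oocyte arrays, 513, 397, 400 and 428 on 1-cell, 389, 493, 381 and 284 on 2-cell and 186, 185, 228 and 98.2 on 8-cell arrays, and 127, 142, 146 and 126 on blastocyst arrays. The first 3 stages overlapped and lay above the last 2, which also overlapped. The only consecutive step that passed was the fall from 2-cell to 8-cell, by 1.13 ± 0.20 (adjusted p = 2.60e-05), and from oocyte to blastocyst the signal fell by 1.64 ± 0.20 (adjusted p = 4.79e-08). The step from 8-cell to blastocyst was −0.28 ± 0.20 (adjusted p = 0.246), was called without 8-cell replicate 4 (−0.52, adjusted p = 0.0201) and was called in the other direction on the hybridization controls (0.77, adjusted p = 0.0352). On those controls the step from oocyte to 1-cell was also called, at −1.05. The second tested probe set, 1426050_at, read between 5.4 and 56.2. With the deposited scaling it passed no comparison, nor the test for any difference among stages. Averaged over both, the change from 2-cell to 8-cell was not called (−0.38, adjusted p = 0.175). The remaining 2 probe sets were too dim to test, with 1420887_a_at highest at the 1-cell stage (8.8 to 46.8) and 1426191_a_at at or below 27.1 on every array.

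Bcl2, the founding anti-apoptotic member, was dim throughout. Its probe set read 43.3, 72.5, 102 and 58.1 on the oocyte arrays, 77.5, 42.4, 67.8 and 45.0 on 1-cell, 43.6, 85.3, 28.1 and 46.7 on 2-cell and 23.0, 32.7, 13.0 and 55.1 on 8-cell arrays, and 5.7, 9.6, 7.5 and 10.5 on blastocyst arrays. The blastocyst arrays lay below all others, and the 8-cell arrays overlapped with each earlier stage. Bcl2 fell by 0.99 ± 0.30 from 8-cell to blastocyst (adjusted p = 0.00938) and by 1.94 ± 0.30 from oocyte to blastocyst (adjusted p = 2.60e-06). No earlier consecutive step passed. The fall from 8-cell to blastocyst was lost on centring (−0.76, adjusted p = 0.0553) and on the hybridization controls (−0.33, adjusted p = 0.457). Without 8-cell replicate 4, the highest of its stage, the step from 2-cell to 8-cell was called (−0.81, adjusted p = 0.0281), as it was on the hybridization controls (−0.95), which also called oocyte to 1-cell at −1.06.

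Among the BH3-only genes, Bid, which is cleaved by caspase-8 to link death receptors to mitochondria, had a signal peak at the 2-cell stage. Probe set 1417045_at read 1.6, 1.3, 5.0 and 1.9 on the oocyte arrays, 3.3, 2.5, 1.0 and 2.6 on 1-cell, 92.1, 68.7, 128 and 102 on 2-cell and 27.7, 6.8, 24.2 and 40.5 on 8-cell arrays, and 3.9, 1.5, 5.4 and 10.6 on blastocyst arrays. Every 2-cell array lay above every array of the other stages, and the 8-cell and blastocyst arrays overlapped. Bid rose by 2.90 ± 0.29 from 1-cell to 2-cell (adjusted p = 1.86e-09), fell by 1.64 ± 0.29 to the 8-cell stage (adjusted p = 2.28e-05) and by 1.01 ± 0.29 to the blastocyst (adjusted p = 0.00554). The last of these was lost on the hybridization controls (−0.47, adjusted p = 0.282). All 1-cell and blastocyst values lay below the added constant, so the sizes of the rise and of the last fall depend on it. The probe set exceeded 33 on 5 arrays, all 4 of the 2-cell stage among them, so it met the filter through that stage. Its calls were the same without a filter. Blastocyst and oocyte lay 0.24 ± 0.29 apart (adjusted p = 0.482), at intensities so low that their order has no meaning, and 7 of the 8 values from 8-cell and blastocyst arrays were below 33. The second Bid probe set, 1448560_at, read at most 5.7 on any array, the 2-cell arrays included, and so showed no such peak.

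Bcl2l11, which encodes Bim, gave probe sets that went different ways. The brightest, 1456005_a_at, read 398, 339, 339 and 358 on the oocyte arrays, 594, 627, 634 and 454 on 1-cell, 147, 193, 185 and 183 on 2-cell and 229, 192, 240 and 201 on 8-cell arrays, and 166, 123, 126 and 102 on blastocyst arrays. The 1-cell arrays lay above all others, and the 2-cell arrays overlapped with both later stages. It rose by 0.66 ± 0.17 from oocyte to 1-cell (adjusted p = 0.00276), fell by 1.63 ± 0.17 to the 2-cell stage (adjusted p = 3.31e-09) and by 0.70 ± 0.17 from 8-cell to blastocyst (adjusted p = 0.00128), ending 1.40 ± 0.17 below oocytes. On the hybridization controls the first of these steps was −0.34 and the last 0.37, neither called, and centring left the last at −0.48 (adjusted p = 0.056).

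Probe set 1435448_at followed the same course at the start, with 1.23 ± 0.18 from oocyte to 1-cell and −1.44 ± 0.18 from 1-cell to 2-cell, as did 1435449_at with 0.68 ± 0.22 and −0.65 ± 0.22. The calls of 1435449_at were fragile: 4 of the 20 arrays, oocyte replicates 2 and 4 and 1-cell replicates 1 and 4, each ended its first call when left out, and on the hybridization controls that change was −0.18. Its second call ended without 1-cell replicate 1 or 2-cell replicate 2 (−0.59 and −0.56) and on the hybridization controls (−0.45). Its fall of 0.70 ± 0.22 from 8-cell to blastocyst was lost without blastocyst replicate 2 (−0.57) and was 0.15 on the hybridization controls, not called, and its change of −0.58 ± 0.22 from oocyte to blastocyst without oocyte replicate 1 or blastocyst replicates 2 or 3 (−0.45 to −0.57). For 1435448_at the rise at the 1-cell stage was 0.27 and not called on the hybridization controls, and leaving out 8-cell replicate 3 added calls from 2-cell to 8-cell (0.47) and from 8-cell to blastocyst (−0.49). Probe set 1426334_a_at did the reverse at the 2-cell stage. It went from 15.8, 18.1, 17.9 and 17.4 at the 1-cell stage to 112, 102, 120 and 83.2, a rise of 1.97 ± 0.23 (adjusted p = 5.94e-08). It exceeded the filter intensity on 7 arrays, all of them 2-cell or 8-cell arrays, so it met the filter through those stages. Its calls were the same without a filter. It then fell by 1.05 ± 0.23 to the 8-cell stage and again by 1.05 ± 0.23 to the blastocyst, the second fall being lost on the hybridization controls (−0.28). The fifth, 1456006_at, passed no comparison and no test among stages. Averaged over its 5 probe sets, Bcl2l11 changed by −0.41 from 1-cell to 2-cell and missed the threshold (adjusted p = 0.0532). The files do not say which transcripts each probe set matches.

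Bad, a BH3-only protein whose activity is set by phosphorylation, was dim in oocytes and early embryos. Probe set 1416582_a_at read 34.6, 13.4, 9.9 and 37.3 on the oocyte arrays, 8.9, 4.7, 9.1 and 19.6 on 1-cell, 28.3, 11.9, 51.1 and 14.4 on 2-cell and 49.4, 197, 187 and 313 on 8-cell arrays, and 170, 201, 234 and 161 on blastocyst arrays. One 8-cell array, replicate 1, lay within the 2-cell range, and the other 3 lay above it. The rise from 2-cell to 8-cell was 2.25 ± 0.38 (adjusted p = 1.49e-05), and blastocysts lay 2.58 ± 0.38 above oocytes (adjusted p = 1.29e-06). The second probe set, 1416583_at, went from 8.1, 18.3, 9.1 and 10.7 at the 2-cell stage to 124, 94.1, 85.4 and 140 at the 8-cell stage. These did not overlap, and the rise was 2.37 ± 0.24 (adjusted p = 3.45e-09). It exceeded the filter intensity on 8 arrays, all of them 8-cell or blastocyst arrays, so it met the filter through those stages. Calls of both Bad probe sets were the same without a filter. Between 8-cell and blastocyst neither passed the test with the deposited scaling (0.25 and 0.12), whereas on the hybridization controls both were called higher there, at 1.28 and 1.14.

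Of the effectors, Bok rose at the same stage. It read 24.5, 46.5, 22.4 and 28 on the oocyte arrays, 37.4, 13.6, 32.2 and 18.8 on 1-cell, 34.4, 11, 32.4 and 34.8 on 2-cell and 290, 221, 280 and 161 on 8-cell arrays, and 145, 147, 175 and 191 on blastocyst arrays. All 8-cell and blastocyst arrays lay above all earlier ones. The rise from 2-cell to 8-cell was 2.66 ± 0.26 (adjusted p = 2.08e-09) and the change from oocyte to blastocyst 2.08 ± 0.26 (adjusted p = 1.00e-07). From 8-cell to blastocyst the change was −0.48 ± 0.26 (adjusted p = 0.139), called at −0.41 (adjusted p = 0.0427) when 48.6 was added to each intensity in place of 12.15. Bok, Bad and their rises at the 8-cell stage kept their calls on the hybridization controls.

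Bak1, the effector that resides on mitochondria, could not be tested. Probe set 1418991_at read 9.2 to 43.4 over the 20 arrays and 1425716_s_at 3.9 to 41.3, with stage means of 21.1 to 32.9 and 9.78 to 30.0. Neither exceeded 33 on 4 arrays, so no level or change of Bak1 is given. With Bax unmeasured as well, Bok is the only effector with tested values.

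**Figure D3:**
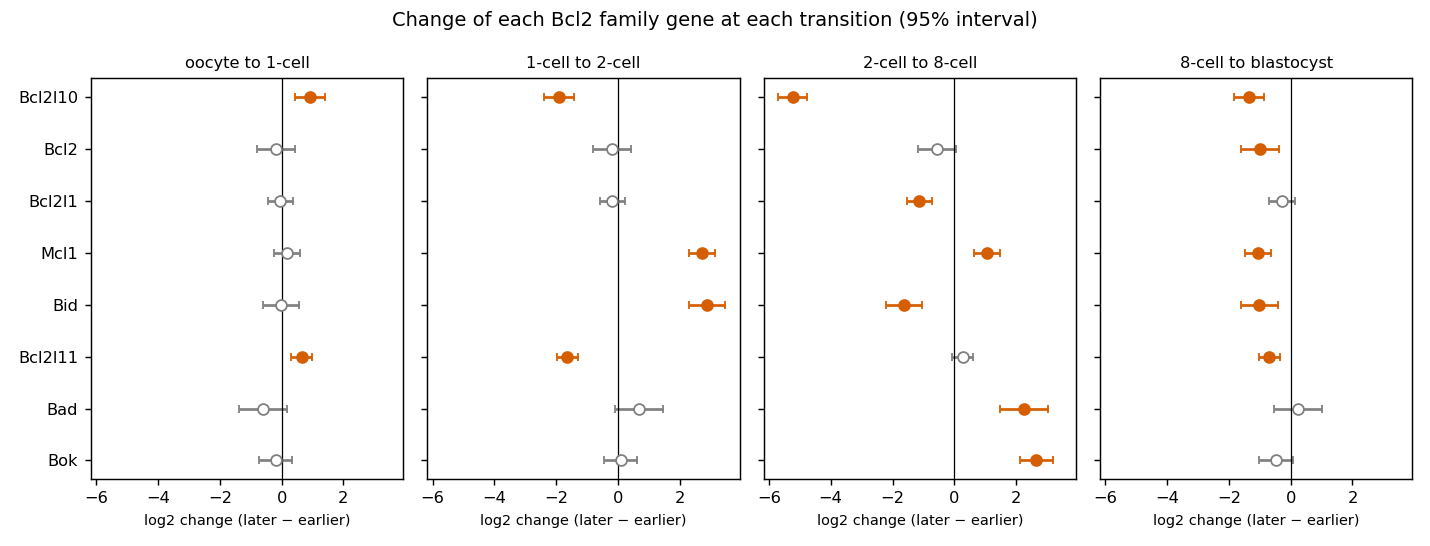
Log2 changes with 95% confidence intervals of the representative probe sets of 8 Bcl2 family genes in the 4 consecutive comparisons; filled points passed the threshold and open points did not. Bcl2l10 has the lowest value in 3 of the 4, Bid and Mcl1 the highest from 1-cell to 2-cell, and Bok and Bad the highest from 2-cell to 8-cell.

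Counted over the 19 tested probe sets, 5 were called higher and 0 lower from oocyte to 1-cell. Over all tested probe sets 16.1% were higher and 15.4% lower, against 26.3% and 0% of the family. The 5 were Bcl2l10, 1 of Mcl1 and 3 of Bcl2l11, and the count was 3 without oocyte replicate 4. The median change was 0.17, against 0.11 over all probe sets. On the hybridization controls 0 were higher and 6 lower (0% and 31.6%), where 0.285% of all probe sets were higher and 42.8% lower.

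From 1-cell to 2-cell 8 were higher and 4 lower, 42.1% and 21.1% against 23.2% and 21.5% over all, with a median of 0.34. The 8 were 6 of Mcl1, 1 of Bid and 1 of Bcl2l11, so that the excess over the background is mostly 1 gene measured 6 times; by representative probe sets, 2 of 8 genes were higher (Mcl1 and Bid) and 2 lower (Bcl2l10 and Bcl2l11). On the hybridization controls 8 were higher and 3 lower (42.1% and 15.8%), against 21.4% and 10.9% of all probe sets. From 2-cell to 8-cell 9 were higher and 4 lower, 47.4% and 21.1% against 23.2% and 25.2%, with a median of 0.37. The 9 were 6 of Mcl1, both of Bad and 1 of Bok, so that the excess is again mostly 1 gene measured 6 times. By representative probe sets, 3 genes were higher (Mcl1, Bad and Bok) and 3 lower (Bcl2l10, Bcl2l1 and Bid). On the hybridization controls 3 were higher and 5 lower there (15.8% and 26.3%), against 8.04% and 31.7% of all probe sets.

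From 8-cell to blastocyst 0 were higher and 12 lower, 0% and 63.2% against 19.5% and 25.5%, with a median of −0.87 against −0.21. The 12 covered 5 genes: Mcl1 with 6, Bcl2l11 with 3, and Bcl2, Bcl2l10 and Bid with 1 each. The counts were 0 higher and 9 lower after centring and 0 and 11 after quantile normalization, but 4 higher and 0 lower on the hybridization controls (21.1% and 0%), where 45.6% of all probe sets were higher and 1.91% lower. From oocyte to blastocyst 9 were higher and 5 lower, 47.4% and 26.3% against 28.5% and 30.7%, with a median of 0.48 against −0.12. The higher ones were all of Mcl1, both of Bad and Bok; the lower ones were Bcl2, Bcl2l1, Bcl2l10 and 2 of Bcl2l11. These counts were 9 and 5 under all 3 other scalings too; on the hybridization controls 21.4% of all probe sets were higher and 33% lower.

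The 5 pairs of stages outside those comparisons served for the order of stages, and the share of all probe sets called in either direction was 44.9% between oocyte and 2-cell, 60% between oocyte and 8-cell, 60.5% between 1-cell and 8-cell, 65.9% between 1-cell and blastocyst and 57.8% between 2-cell and blastocyst. For Mcl1 the order was oocyte, 1-cell, 2-cell, blastocyst, 8-cell, with oocyte and 1-cell and again 2-cell and blastocyst not told apart by the brightest probe set; 1416881_at and 1448503_at were lower in blastocysts than at the 2-cell stage, by 0.73 and 0.52 in log2. For Bid it was 1-cell, oocyte, blastocyst, 8-cell, 2-cell, with the first 3 not told apart. Bok ran 1-cell, 2-cell, oocyte, blastocyst, 8-cell and Bad 1-cell, oocyte, 2-cell, 8-cell, blastocyst, each with 1 step that passed, between the first 3 and the last 2. Bcl2l1 had the same division in reverse, with blastocyst and 8-cell below 2-cell, 1-cell and oocyte. In a test for any difference among the 5 stages (limma's moderated F-test) 17 of the 19 passed, where 82.1% of all tested probe sets did.

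Differences between probe sets were also taken within each array, where an array-wide factor cancels for bright probe sets but, because of the added constant, not for dim ones. Their size is no ratio of transcripts, and only their shift between stages is read. The log2 difference of Mcl1 minus Bcl2l10 was −5.94 ± 0.33 (SD, n = 4) on oocyte arrays, −6.68 ± 0.19 on 1-cell, −2.05 ± 0.83 on 2-cell, 4.25 ± 0.84 on 8-cell and 4.54 ± 0.46 on blastocyst arrays. The 1-cell, 2-cell and 8-cell ranges did not touch, while those of 8-cell (3.16 to 5.21) and blastocyst (4.12 to 5.20) did. The difference of Bid minus Mcl1 was −3.06 ± 0.36, −3.24 ± 0.19, −3.07 ± 0.34, −5.77 ± 0.59 and −5.72 ± 0.55 at the 5 stages in turn. It was at a like level through the 2-cell stage, when both signals had risen, and lower on every 8-cell and blastocyst array. In oocytes, 1-cell embryos and blastocysts every Bid intensity was below the added constant, and at the 8-cell stage 3 of 4 were below 33, so these differences rest largely on the constant, as do those of Bcl2l10 in part in blastocysts.

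**Figure D4:**
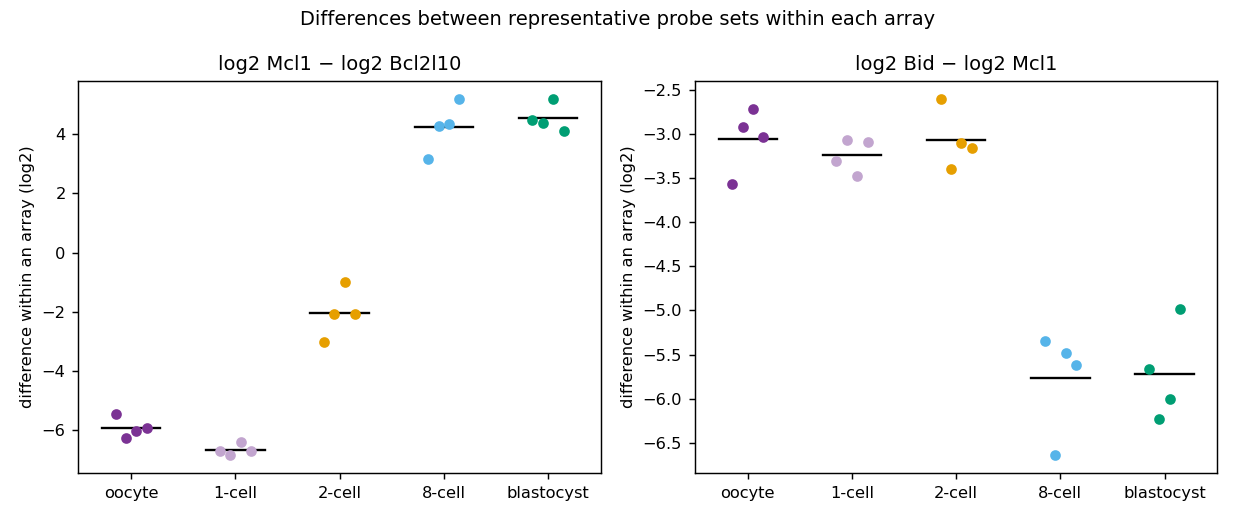
Difference between the representative probe sets of 2 genes within each array, on the log2(intensity + 12.15) scale, by stage: Mcl1 minus Bcl2l10 and Bid minus Mcl1. Points are arrays and bars stage means; the first difference moves up from a mean of −6.68 at the 1-cell stage to 4.54 in blastocysts, and the second moves down between the 2-cell and 8-cell stages, from −3.07 to −5.77.

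Over the 20 arrays, which share their stage structure, the genes with the most similar log2 profiles among 10243 were as follows, as a description. Bcl2l10 was closest to Zbed3 (Pearson r = 0.995), Rspo2 (0.995) and Btg4 (0.993), of which Btg4 adapts the deadenylase that clears maternal transcripts; Btg4 averaged 7295, 11199, 5470, 72.6 and 9.80 from oocyte to blastocyst. Mcl1 was closest to Tmppe (0.994), Wdr45b (0.992) and Timm22 (0.991), a subunit of the inner mitochondrial membrane translocase, and Bid to Tor1aip1 (0.960), Rilpl2 (0.951) and Spz1 (0.947). Spz1 averaged 3.50, 5.83, 730, 37.1 and 5.70 across the stages, so it shared Bid's peak at the 2-cell stage.

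Bok was closest to Gata6 (0.965), a transcription factor of the primitive endoderm, to Vnn1 (0.963) and to Dnajc24 (0.956); Gata6 averaged 68.2, 108, 66.4, 1055 and 630. Bad was closest to Fasn (0.958), the fatty acid synthase, then Ranbp1 (0.931) and Spcs3 (0.931). Bcl2l11 by its brightest probe set was closest to Rasal2 (0.965), Pole3 (0.957) and Tpd52l2 (0.957), Bcl2l1 to Bmp2k (0.957), Prkd1 (0.955) and Syce2 (0.953). Bcl2 had the lowest best match, with Ctsh at 0.889, Smarcd2 at 0.882 and Nrsn1 at 0.881.

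Among the other Bcl2 family genes, 11 probe sets of 8 genes were tested. Pmaip1, which encodes the BH3-only protein Noxa that binds Mcl1, rose by 2.17 ± 0.25 from 1-cell to 2-cell (adjusted p = 3.35e-08). Its change from oocyte to blastocyst was 2.73 ± 0.25 (adjusted p = 2.45e-10). The signal was dim, averaging 1.7, 1.0, 47.5, 39.8 and 81.2 from oocyte to blastocyst. Oocyte and 1-cell means lay below the added constant, so the sizes of both changes depend on it. Bcl2l14 rose by 1.66 from 1-cell to 2-cell and by 1.57 from 2-cell to 8-cell, and was 2.71 higher in blastocysts than in oocytes. Bik, another BH3-only gene, fell by 0.97 from 2-cell to 8-cell and by 1.24 from oocyte to blastocyst, and Bcl2l15 fell by 1.84 from oocyte to 1-cell. The counts higher and lower were 2 and 1 from oocyte to 1-cell, 4 and 1 from 1-cell to 2-cell, 2 and 4 from 2-cell to 8-cell, 1 and 4 from 8-cell to blastocyst and 4 and 3 from oocyte to blastocyst. In percent they were 18.2 and 9.09, 36.4 and 9.09, 18.2 and 36.4, 9.09 and 36.4, and 36.4 and 27.3. Over all probe sets they were 16.1 and 15.4, 23.2 and 21.5, 23.2 and 25.2, 19.5 and 25.5, and 28.5 and 30.7. On the hybridization controls the counts were 0 and 3, 4 and 0, 1 and 4, 3 and 0, and 3 and 3. In percent they were 0 and 27.3, 36.4 and 0, 9.09 and 36.4, 27.3 and 0, and 27.3 and 27.3. Over all probe sets they were then 0.285 and 42.8, 21.4 and 10.9, 8.04 and 31.7, 45.6 and 1.91, and 21.4 and 33. The median changes were 0.21, 0.41, −0.23, −0.31 and −0.04, to be set, as those of the next 3 lists, beside the medians of all probe sets given above. Of this list 4 genes, Bcl2a1a, Bcl2a1b, Bcl2a1d and Bcl2l12, had no probe set of their own.

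Regulators of Bcl2 family proteins gave 31 tested probe sets of 14 genes. Usp9x, the deubiquitinase that stabilizes Mcl1 protein, fell by 1.12 from 1-cell to 2-cell (adjusted p = 2.41e-05), where 3 of its 6 probe sets were called lower. It fell by 2.20 from 2-cell to 8-cell (adjusted p = 2.76e-10), where all 6 were called lower. Mcl1 signal rose at these steps, but its rise at the second was not called on the hybridization controls. Bag1, a cochaperone that binds Bcl2, fell by 1.56 from oocyte to 1-cell and rose by 2.92 from 1-cell to 2-cell, and Mtch2, the outer membrane receptor of truncated Bid, rose by 1.52 from 2-cell to 8-cell and was 3.33 higher in blastocysts than in oocytes. The channel Vdac1 was 3.36 higher in blastocysts than in oocytes, and Vdac2, which holds Bak1 at mitochondria, fell by 1.42 from oocyte to 1-cell and rose by 1.93 from 8-cell to blastocyst. Counts higher and lower in the 5 comparisons were 14 and 6, 10 and 9, 10 and 13, 14 and 5, and 14 and 12. In percent they were 45.2 and 19.4, 32.3 and 29, 32.3 and 41.9, 45.2 and 16.1, and 45.2 and 38.7. Over all probe sets they were 16.1 and 15.4, 23.2 and 21.5, 23.2 and 25.2, 19.5 and 25.5, and 28.5 and 30.7. On the hybridization controls the counts were 2 and 12, 10 and 5, 1 and 14, 22 and 0, and 13 and 12. In percent they were 6.45 and 38.7, 32.3 and 16.1, 3.23 and 45.2, 71 and 0, and 41.9 and 38.7. Over all probe sets they were then 0.285 and 42.8, 21.4 and 10.9, 8.04 and 31.7, 45.6 and 1.91, and 21.4 and 33. The median changes were 0.35, 0.10, 0.16, 0.37 and 0.31. Genes with many probe sets weigh on these counts. Of the 13 lower from 2-cell to 8-cell, 6 were of Usp9x. Usp9x and Vdac1 gave 4 each of the 14 higher from oocyte to 1-cell. Bnip3l and Trp53 had no probe set of their own.

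Of the apoptosome and caspases 14 probe sets of 10 genes were tested. Casp8, which cleaves Bid, fell by 2.21 from 1-cell to 2-cell (adjusted p = 9.15e-08), the step at which Bid signal rose, and by 1.20 from 2-cell to 8-cell. Casp6, an executioner caspase, rose by 1.51 and 2.83 in the same steps (adjusted p = 5.18e-05 and 1.92e-09). Cytochrome c, Cycs, fell by 1.41 from oocyte to 1-cell, where 2 of its 3 probe sets were called lower. It rose by 1.04 from 2-cell to 8-cell, where all 3 were called higher. On the hybridization controls that rise of its brightest probe set was lost (0.44). Apaf1, the apoptosome scaffold, was 1.50 higher in blastocysts than in oocytes in its brightest probe set, with 1 of its 2 tested probe sets called. The counts were 0 and 2, 4 and 2, 4 and 2, 4 and 1, and 4 and 2. In percent they were 0 and 14.3, 28.6 and 14.3, 28.6 and 14.3, 28.6 and 7.14, and 28.6 and 14.3. Over all probe sets they were 16.1 and 15.4, 23.2 and 21.5, 23.2 and 25.2, 19.5 and 25.5, and 28.5 and 30.7. On the hybridization controls the counts were 0 and 6, 3 and 1, 1 and 4, 8 and 0, and 3 and 3. In percent they were 0 and 42.9, 21.4 and 7.14, 7.14 and 28.6, 57.1 and 0, and 21.4 and 21.4. Over all probe sets they were then 0.285 and 42.8, 21.4 and 10.9, 8.04 and 31.7, 45.6 and 1.91, and 21.4 and 33. The median changes were 0.13, 0.20, 0.021, 0.0030 and 0.17.

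Caspase inhibitors and factors released from mitochondria gave 22 tested probe sets of 12 genes. Birc3, an inhibitor of apoptosis, fell at the same steps as Bcl2l10: by 1.60 from 1-cell to 2-cell, by 2.29 from 2-cell to 8-cell and by 4.56 from oocyte to blastocyst (adjusted p = 8.94e-19). Xiap, a direct caspase inhibitor, rose by 1.59 from 2-cell to 8-cell and by 2.70 from oocyte to blastocyst in its brightest probe set; of its 5 probe sets 3 were called higher and 2 lower in the former and 3 higher and 1 lower in the latter. Diablo, which antagonizes such inhibitors once released, rose by 1.65 from 1-cell to 2-cell. The counts were 5 and 3, 8 and 4, 12 and 5, 4 and 9, and 11 and 3. In percent they were 22.7 and 13.6, 36.4 and 18.2, 54.5 and 22.7, 18.2 and 40.9, and 50 and 13.6. Over all probe sets they were 16.1 and 15.4, 23.2 and 21.5, 23.2 and 25.2, 19.5 and 25.5, and 28.5 and 30.7. On the hybridization controls the counts were 0 and 9, 8 and 3, 3 and 5, 10 and 0, and 4 and 3. In percent they were 0 and 40.9, 36.4 and 13.6, 13.6 and 22.7, 45.5 and 0, and 18.2 and 13.6. Over all probe sets they were then 0.285 and 42.8, 21.4 and 10.9, 8.04 and 31.7, 45.6 and 1.91, and 21.4 and 33. The median changes were 0.32, 0.01, 0.72, −0.38 and 0.56.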

How the data were processed

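Expression arrays of mouse oocytes and embryos were analysed, 20 in all, 4 at each of 5 stages, grouped by the stage in their titles. The authors deposited 1 signal intensity per probe set and array, on a linear scale; its software and scaling are not given in the sources used, and the trimmed means are equal on all arrays. Number of arrays limits the precision.

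All 22690 probe sets were read, 64 controls were set aside, and genes were named from the platform annotation, which can be old (20380 probe sets with 1 symbol, 691 with several, 1555 with none). Deposited intensities were kept as scaled and log2(intensity + 12.15) was taken, the constant being the pooled median over 4. Probe sets that exceeded 33, the 40th percentile of the pooled values, on at least 4 arrays entered 1 fit of all 20 arrays in limma 3.58.1 (lmFit, eBayes with trend) in R 4.3.3, two-sided, with Benjamini-Hochberg adjustment within each comparison. The fit was tested on simulated data. Alternatives were quantile, median and hybridization-control scaling, 2 other constants, 2 other filters, a fit of the compared stages alone, no trend, a replicate block, a 2-fold threshold and leaving out each array.

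Members and gene lists were chosen with earlier results of these data known. Every member was named with all its probe sets; from the lists, genes were named from up to 2 with the largest called rise and 2 with the largest called fall of their brightest probe set per comparison; 3 genes of most similar profile were named per member. A planned difference of Bax minus Bcl2l1 was not computed, as Bax had no probe set. Promoter windows came from RefSeq (GRCm38.p6).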

Additional observations from a re-analysis of the deposited data

Results flagged for a closer look

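In 4 of 95 groups of 4 arrays, 1 array stood apart from the other 3 by Dixon's criterion, which chance alone meets in about 1 in 20 groups. Mcl1 probe set 1448503_at read 49.2 on 1-cell replicate 3, below 63.2 to 63.8 on the others. Mcl1 probe set 1456243_x_at read 891.7 on 2-cell replicate 3, above 512.9 to 554.8. Bid read 5 on oocyte replicate 3, above 1.3 to 1.9, all of them far below the filter. Bok read 11 on 2-cell replicate 2, below 32.4 to 34.8. Leaving out any of these 4 arrays changed none of the calls of the probe set concerned.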

How the results depend on the processing

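Of 95 member changes, probe set by comparison, 56 were called. Scaling to the hybridization controls turned the sign of 12 with a call on either side: Bcl2l10 from oocyte to 1-cell (−0.11), Bcl2l1 1420888_at from 8-cell to blastocyst (0.77), Mcl1 from oocyte to 1-cell (1437527_x_at −0.77, 1456243_x_at −0.82, 1456381_x_at −0.17) and from 8-cell to blastocyst (1416880_at 0.24, 1437527_x_at 0.080, 1456243_x_at 0.079), and Bcl2l11 from oocyte to 1-cell (1435449_at −0.18, 1456005_a_at −0.34) and from 8-cell to blastocyst (1435449_at 0.15, 1456005_a_at 0.37). It ended 15 other calls and added 8, not all of which are named with their genes above. Centring ended 4 calls, quantile normalization ended 2 and added 2, and the larger constant ended 1 and added 1. A further 25 changes turned sign under some setting with no call on either side. With that scaling the family count was 8 from 2-cell to 8-cell and 4 from 8-cell to blastocyst, against 13 and 12. From oocyte to 1-cell the family count of 5 became 1 at a 2-fold threshold and 3 to 5 on leaving out each array. Without a filter, where dim Bcl2 family probe sets are tested as well, the family count was 8 of 24. Over all probe sets 5358 of 22626 were called without a filter. Over all probe sets a 2-fold threshold gave 2420, 4675, 5064 and 3439 in the 4 consecutive comparisons, against 5400, 7693, 8326 and 7739. The cause of the differences between scalings was not tested.

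Each member change was refitted with each array left out, 1900 refits in all: 0 turned sign with a call, 11 lost a call and 4 gained one. Where that array belonged to neither compared stage, the change itself could not move, only its standard error and adjusted p. Those refits could not turn a sign, so the total overstates how far the signs were tested. The replicate numbers did not pair the arrays: deviations of same-numbered arrays of different stages correlated at −0.16 to 0.18 (mean 0.013, 40 pairs). With the number as a replicate block the family counts were 5, 12, 13, 12 and 14 of 19 in the 5 comparisons, and no member call changed. Over all 17193 probe sets 5402, 7698, 8309, 7686 and 10199 were called with that block. Fits of the compared stages alone and without the variance trend, the other filters and the smaller constant also changed no member call among the probe sets they tested. Signals around or below 33 are weakly ordered at this precision, among them Bid outside the 2-cell stage, most values of Bad before the 8-cell stage and of both Bak1 probe sets, and Bcl2l10 in blastocysts.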
